A study of Homo sapiens with 6 samples.

Results

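Interferons are secreted proteins that warn neighbouring cells of infection. Type I interferons, among them interferon beta, and type III interferons, called lambda, are made when sensors of foreign or misplaced nucleic acid activate the IRF and NF-kB transcription factors. Type I interferons act on nearly all cells, whereas the receptor of the lambda interferons is found mainly on epithelia such as the lining of the gut. CXCL10 is a chemokine that draws T cells and natural killer cells through the receptor CXCR3, and its gene is switched on both by interferons and directly by IRF and NF-kB factors. The genes described here are 5 of the 7681 genes in the deposited tables: IFNB1, which encodes interferon beta, IFNL1, IFNL2 and IFNL3, which encode lambda interferons, and CXCL10. They were chosen by their symbols, and the choice was made because they stood among the largest rises in the same comparison.

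The study grew HCT116, a human colorectal carcinoma cell line, without treatment for 48 hours and sequenced RNA from 6 cultures. The 3 control cultures carried the wild-type genotype, and the other 3 were labelled Rab27B KO, made by CRISPR/Cas9 deletion of RAB27B, which encodes a small GTPase of vesicle secretion. The sources used here do not say whether the edited cells were 1 clone or a pool. The tables give, for Rab27B KO over wild type, a log2 fold change and its q-value, the p-value after adjustment for many tests, and hold only genes with a q-value below 0.05. Values per sample were not analysed here, so folds carry no standard error here, and depth, replicate spread and the level in either genotype are unknown. RAB27B itself stood at a log2 fold change of 5.20, with its q-value listed as 0, per the authors' deposited table. That is against the direction its label implies, so that directions below are those of libraries by their labels. Of 10 leukocyte markers, among them those of the plasmacytoid dendritic cells and macrophages that make interferon in tissue, 1 was listed, CD68, at 3.51-fold higher per the authors' deposited table. Of 9 markers of colon epithelium 3 were listed as higher (KRT8, KRT18 and KRT20) and 3 as lower (EPCAM, CDX2 and CDH1), and their part in the results below was not tested.

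The stretches of DNA before the start sites show what the genes share and where they differ. The 250 bases before each start come from RefSeq (GRCh38.p14), which had an entry for each of the 5 genes, and are printed 5′ to 3′ in the direction of transcription. Capitals mark matches, on either strand, to motifs chosen for what is known of interferon promoters: the IRF element core AANNGAAA, the longer interferon-stimulated response element core GAAANNGAA, an NF-kB-like motif GGGANNTNC and the TATA motif TATAAA. IFNB1 lies at chr9:21077943-21078192 (minus strand), CXCL10 at chr4:76023498-76023747 (minus strand), IFNL1 at chr19:39296157-39296406 (plus strand) and IFNL2 at chr19:39268146-39268395 (plus strand), as intervals of these printed bases.
IFNB1: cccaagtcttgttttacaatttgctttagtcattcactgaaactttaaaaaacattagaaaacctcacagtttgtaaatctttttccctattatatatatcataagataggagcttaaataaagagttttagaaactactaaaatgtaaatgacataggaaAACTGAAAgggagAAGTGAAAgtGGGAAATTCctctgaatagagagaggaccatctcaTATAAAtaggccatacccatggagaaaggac
CXCL10: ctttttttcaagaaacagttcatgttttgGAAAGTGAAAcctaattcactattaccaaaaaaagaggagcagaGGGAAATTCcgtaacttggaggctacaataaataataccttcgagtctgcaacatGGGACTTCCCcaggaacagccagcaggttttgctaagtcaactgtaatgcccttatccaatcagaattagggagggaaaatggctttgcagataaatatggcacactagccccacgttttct
IFNL1: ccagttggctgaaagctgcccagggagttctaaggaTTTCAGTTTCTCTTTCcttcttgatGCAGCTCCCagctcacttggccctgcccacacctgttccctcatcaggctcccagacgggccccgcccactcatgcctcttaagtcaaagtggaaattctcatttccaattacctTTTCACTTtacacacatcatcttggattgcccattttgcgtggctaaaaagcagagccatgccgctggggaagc
IFNL2: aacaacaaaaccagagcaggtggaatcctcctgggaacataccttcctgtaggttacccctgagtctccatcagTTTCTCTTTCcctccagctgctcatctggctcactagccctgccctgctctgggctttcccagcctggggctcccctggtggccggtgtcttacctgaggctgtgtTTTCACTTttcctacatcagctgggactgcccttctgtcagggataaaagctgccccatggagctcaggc

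Matches to the IRF element core were present before all 5 genes, at 2 places in IFNB1, 3 in IFNL1, 2 each in IFNL2 and IFNL3 and 1 in CXCL10. A match of this short motif was found in 20.3% of 35116 promoter windows of the same length, so it is common. The longer core was found in 6.88% of windows and stood before IFNL1, at 2 overlapping places, and before IFNL2, IFNL3 and CXCL10, but not in the IFNB1 window. Each match of the longer core in these windows overlaps one of the IRF element core. The NF-kB-like motif, found in 14.1% of windows, stood once before IFNB1, 66 to 58 bases before the start, once before IFNL1 and at 2 places before CXCL10, at 177 to 169 bases and, on both strands, at 122 to 113 bases. The letters at the first CXCL10 place, GGGAAATTC, are those of the IFNB1 match. In IFNB1 this motif lay just downstream of the IRF element matches at 89 to 82 and 76 to 69 bases, the compact arrangement for which this promoter is known. A TATA motif, found in 10.7% of windows, stood 31 to 26 bases before the start of IFNB1 and in none of the other 4 windows. A match describes letters only, and its absence says only that these letters are not in the window.

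IFNL2 and IFNL3 are near-identical copies, which bears on how their reads can be told apart. Their 250-base windows, IFNL3's at chr19:39245251-39245500 on the minus strand, differ at 1 position, C31T, counted from the first base printed, with the IFNL2 base first. Their coding sequences in GENCODE release 29 were identical at 577 of 588 aligned bases (98.1%), with 11 mismatches, and IFNL2 holds 12 further coding bases at its start. IFNL1 was less alike, with 81.0% identity to IFNL2 and 81.1% to IFNL3 over the aligned coding bases. The following 100 coding bases are the first window to reach the largest number of mismatches in any such window, 3, shown in capitals. They are bases 13 to 112 of IFNL2, at chr19:39268679-39268778 on the plus strand, and bases 1 to 100 of IFNL3, at chr19:39244868-39244967 on the minus strand, each within 1 exon of the GRCh38 annotation.
IFNL2: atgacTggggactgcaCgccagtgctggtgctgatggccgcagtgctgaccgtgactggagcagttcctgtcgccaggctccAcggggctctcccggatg
IFNL3: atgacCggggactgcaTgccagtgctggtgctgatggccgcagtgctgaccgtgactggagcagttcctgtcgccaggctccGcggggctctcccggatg

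Of 100-base stretches of the IFNL2 transcript 5.17% were found unchanged in a transcript of another gene, and of those of IFNL3 5.92%, in both cases in the other of the pair. At 50 bases the shares were 32.0% for IFNL2 and 33.9% for IFNL3, and a pseudogene, IFNL3P1, also held some of these stretches. At 150 bases no stretch was shared. For IFNB1, IFNL1 and CXCL10 no stretch of 50, 100 or 150 bases was shared with another gene. Aligners tolerate mismatches, and 76.7% of aligned 100-base coding windows of IFNL2 and IFNL3 differed at 2 bases or fewer. The sources used here give neither read length nor the handling of reads with several matches, so the split of reads between these genes is uncertain and the values of IFNL2 and IFNL3 may not be independent.

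**Figure D1:**
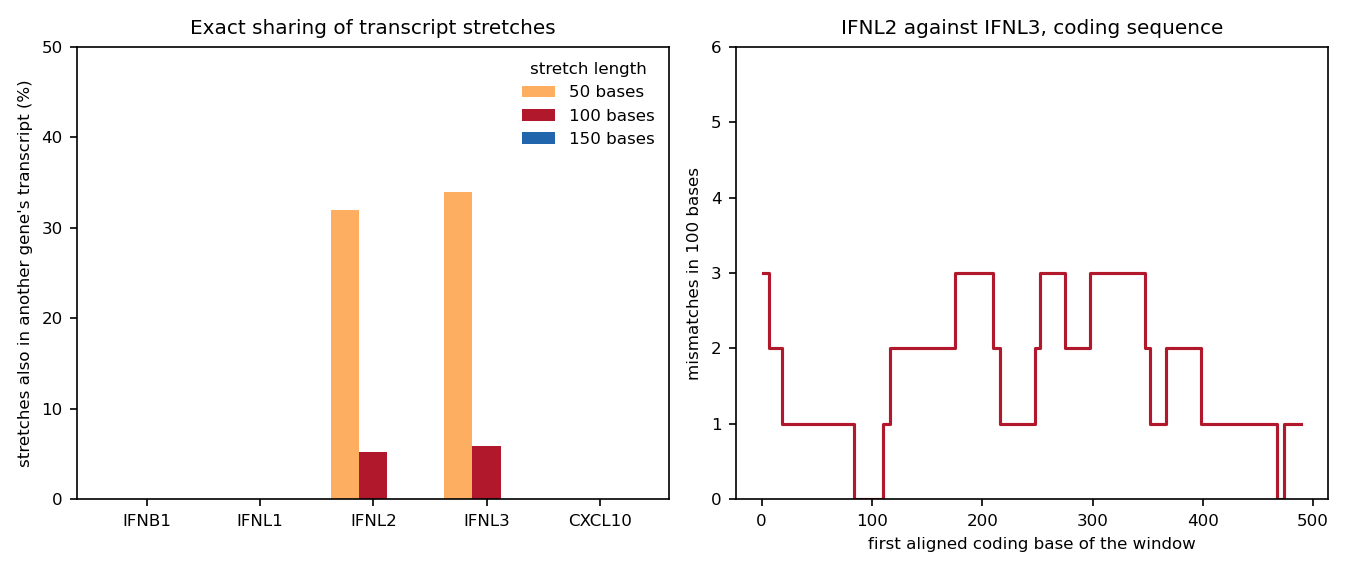
Left, the percentage of stretches of 50, 100 and 150 bases in each transcript that occur unchanged in a transcript of another gene; IFNB1, IFNL1 and CXCL10 have no bars because none was shared, and IFNL2 and IFNL3 reach 32.0% and 33.9% at 50 bases. Right, mismatches between IFNL2 and IFNL3 in each 100-base window of the aligned coding sequence, by the first base of the window; no window has more than 3.

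The lambda interferon genes gave large folds with small q-values. IFNL1 (gene ID 282618; GRCh38 chromosome 19, 39296407 to 39298673) was listed as 53.7-fold higher, a log2 fold change of 5.75 with q = 2.25e-21 per the authors' deposited table. IFNL2 (gene ID 282616; chromosome 19, 39268396 to 39270188) was listed as 74.5-fold higher, a log2 fold change of 6.22 with q = 2.58e-15 per the authors' deposited table. IFNL3 (gene ID 282617; chromosome 19, 39243455 to 39245250) was listed as 20.4-fold higher, a log2 fold change of 4.35 with q = 1.59e-13 per the authors' deposited table. By size of fold among the 3898 genes listed as higher, IFNL2 ranked 2, IFNL1 6 and IFNL3 26. The order of the 3 folds is not the order of their q-values, since IFNL1 had the smallest q-value without the largest fold. The log2 folds of IFNL2 and IFNL3 lay 1.87 apart, a 3.65-fold difference between the folds of these near-identical genes, and the spread needed to test that gap is unknown.

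IFNB1 and CXCL10 gave folds between those of IFNL3 and IFNL2 with larger q-values. IFNB1 (gene ID 3456; GRCh38 chromosome 9, 21077104 to 21077942), a single-exon gene, was listed as 44.1-fold higher, a log2 fold change of 5.46 with q = 5.67e-04 per the authors' deposited table. CXCL10 (gene ID 3627; chromosome 4, 76021118 to 76023497) was listed as 65.8-fold higher, a log2 fold change of 6.04 with q = 9.57e-06 per the authors' deposited table. Their folds ranked 9 and 4 among the higher genes. IFNB1's log2 fold lay only 0.29 below that of IFNL1, yet 67.2% of all listed genes had a smaller q-value than IFNB1 and 14.3% a smaller one than IFNL1. For CXCL10 that share was 52.5%, for IFNL2 21.4% and for IFNL3 24.5%. All 5 genes were listed as higher, and all 5 also met a q-value below 0.01 and a log2 change of at least 1. Of all listed genes 50.7% were higher and 49.3% lower. At a q-value below 0.01 these shares were 43.4% and 41.5%, and at a log2 change of at least 1 they were 6.11% and 6.5%. Since the 5 genes were picked from this comparison, nothing is read from their count.

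Each gene can also be set beside the listed genes of like fold, those within 0.5 of it on the log2 scale. None of the 8 such genes around IFNL1 had a smaller q-value. Around IFNL2 2 of 5 had a smaller q-value, around IFNL3 8 of 23, around IFNB1 6 of 11 and around CXCL10 5 of 7. These sets can hold others of the genes described, as with IFNL1 around IFNL2, IFNB1 and CXCL10. In part they therefore rank the described genes against one another. The lambda genes thus stood among the better supported genes of their fold size or in the middle, and IFNB1 and CXCL10 in the middle or the weaker part, with so few genes per comparison that only IFNL1 stands at an end. The number of reads behind each value is unknown, and few reads can underlie a large fold. In bulk RNA, more cells that make a transcript and more of it per cell cannot be told apart.

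**Figure D2:**
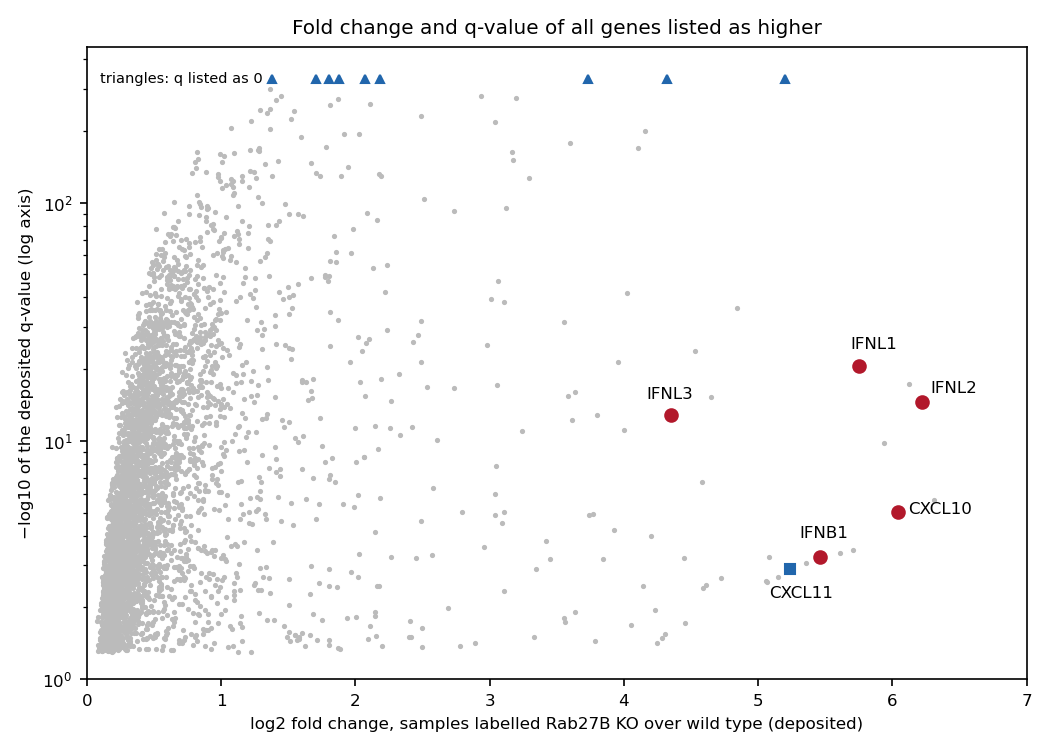
Each grey point is 1 gene listed as higher, with its deposited log2 fold change on the x axis and −log10 of its deposited q-value on a logarithmic y axis; red circles are the 5 genes described, the blue square is CXCL11, and triangles at the top are genes with q listed as 0. IFNL1 and IFNL2 lie well above IFNB1, CXCL10 and CXCL11 at similar folds, and IFNL3 also lies above them, at a smaller fold.

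The genes whose folds come next to each of them were of varied kinds, the likeness being only the gap in log2 fold change in 1 comparison. Next to IFNB1 stood ROBO4, a receptor of endothelial cells, 0.15 above, and CALB1, a calcium-binding protein, 0.11 below it per the authors' deposited table. Next to IFNL1 stood the keratin gene KRT14 and the transposase-derived gene PGBD3, and next to CXCL10 the keratin genes KRT16 and KRT14. KRT16 also came just below IFNL2. IFNL3 lay between the potassium channel gene KCNQ5 and OASL, an antiviral gene of the oligoadenylate synthetase family, whose log2 folds per the authors' deposited table were 4.45 and 4.32.

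Few other interferon ligand genes were listed. Of 22 ligand genes of types I, II and III, 5 were listed. The 4 higher ones are the interferon genes picked from this comparison, so nothing is read from that count. None of the 13 IFNA genes was listed, nor were IFNK, IFNW1, IFNG, which encodes interferon gamma, or IFNL4. The 1 lower ligand was IFNE, an interferon known from the epithelium of the reproductive tract, at 13.1-fold lower with q = 0.0350 per the authors' deposited table. Genes that are not listed either did not pass the q-value threshold or were not measured, and these cases cannot be told apart.

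Of 3 chemokines that share the receptor CXCR3, CXCL10 and CXCL11 were listed as higher and CXCL9 was not listed. Per the authors' deposited table CXCL11 was 37.7-fold higher with q = 0.00128. Its log2 fold change, 5.24, lies 0.80 below that of CXCL10. Both genes lie inside ART3, a gene on the opposite strand that was not listed, and share none of its exon bases in GENCODE release 29. Of a wider list of 8 genes drawn up around this receptor those 2 were listed. CXCL9, PF4, PF4V1, CXCL13, the receptor gene CXCR3 and DPP4, whose protein trims these chemokines, were not. The 250 bases before the start of CXCL11 held the NF-kB-like motif at 76 to 68 bases. Its letters were the same as in IFNB1 and at the first CXCL10 place. The IRF element core matched there at 118 to 111 and at 11 to 4 bases, and a TATA motif stood at 42 to 37 bases. The longer response element core was not present.

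The listed receptors and receptor kinases changed little. Of 9 genes 5 were listed, all as higher, beside 50.7% higher among all listed genes, with a median log2 fold change of 0.43 beside 0.12 over all listed genes. IFNLR1, the chain that gives the lambda receptor its specificity, was 1.35-fold higher with q = 7.50e-05 per the authors' deposited table. The interferon gamma receptor genes IFNGR1 and IFNGR2 were 1.61-fold (q = 4.44e-16) and 1.11-fold (q = 0.0380) higher per the authors' deposited table. The kinase genes JAK2 and JAK1 were 1.37-fold (q = 0.00483) and 1.08-fold (q = 0.0397) higher per the authors' deposited table. The type I receptor genes IFNAR1 and IFNAR2, the shared lambda receptor chain IL10RB and the kinase TYK2 were not listed. Among the factors that carry the interferon signal, STAT2 and IRF9 were not listed. Those listed were STAT4 at 1.80-fold higher and STAT3 at 1.12-fold lower per the authors' deposited table.

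Of 24 sensors and adaptors that lead to interferon transcription 15 were listed, 8 higher and 7 lower, a split near that of all listed genes (50.7% higher). Their median log2 fold change was 0.16, beside 0.12 over all listed genes. DHX58 (LGP2) and RIGI, RNA helicases of the RIG-I family, were 6.65-fold and 1.65-fold higher, and OPTN, an adaptor for the kinase TBK1, 2.05-fold higher per the authors' deposited table. TICAM1, the adaptor of TLR3, was 1.46-fold higher, whereas MAVS, the mitochondrial adaptor of RIGI, was 1.22-fold and MYD88 1.41-fold lower per the authors' deposited table. The kinase genes TBK1 and IKBKE and the DNA sensor gene CGAS were not listed. Of the same group, STING1 was 1.42-fold lower, and IFIH1 1.67-fold and TLR9 3.31-fold higher, per the authors' deposited table. Also lower were TRAF6 at 1.36-fold, RNF135 at 1.35-fold, EIF2AK2 at 1.27-fold and TRIM25 at 1.19-fold per the authors' deposited table. The remaining higher genes were AZI2 at 1.16-fold and TANK at 1.12-fold per the authors' deposited table.

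Of 15 activators and coactivators of interferon promoters 8 were listed, 5 higher and 3 lower, too few to set apart from the 50.7% higher among all listed genes. JUN was 3.76-fold, RELB 1.86-fold, NFKB2 1.82-fold and HMGA1, an architectural protein of the IFNB1 enhancer, 1.21-fold higher per the authors' deposited table. NFKB1 was 1.50-fold and the coactivator CREBBP 1.52-fold lower per the authors' deposited table. IRF1 was 1.39-fold higher and EP300 1.16-fold lower per the authors' deposited table. IRF3 and IRF7, the factors most directly tied to interferon transcription, were not listed, nor was RELA. Of 4 repressors of such promoters ZEB1, at 6.66-fold, and BCL6, at 1.44-fold, were higher per the authors' deposited table, and IRF2 and PRDM1 were not listed.

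Of 14 inhibitor genes 11 were listed, 9 higher and 2 lower, beside 50.7% higher among all listed genes. Their median log2 fold change was 0.32, beside 0.12 over all listed genes, and 1 of them reached a log2 change of 1. TNFAIP3 (A20), which restrains NF-kB signalling, was 2.87-fold, the JAK inhibitor SOCS1 1.73-fold and SOCS3 1.27-fold higher per the authors' deposited table. RNF125, a ubiquitin ligase that acts on RIGI, was 1.60-fold and TNIP1, a partner of A20, 1.20-fold higher, and TRIM38 was 1.85-fold lower per the authors' deposited table. Of 9 genes for nucleases, editors and helicases that remove or mask the cell's own nucleic acids, 6 were listed, 4 higher and 2 lower, again beside 50.7% higher among all listed genes. The DNA exonuclease TREX1 was 1.45-fold, the lysosomal nuclease DNASE2 1.42-fold, SKIC2 1.30-fold and SAMHD1 1.17-fold higher per the authors' deposited table. ADAR, the RNA editor that masks double-stranded RNA, was 1.29-fold and RNASEH2B 1.59-fold lower per the authors' deposited table.

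Genes that respond to interferon were listed as higher more often than as lower. Of 34 such genes 23 were listed, 20 higher and 3 lower, beside 50.7% higher among all listed genes. The list was written with earlier results of these data known, so its counts only describe these genes. Their median log2 fold change was 1.25, beside 0.12 over all listed genes. A log2 rise of at least 1 was reached by 13 of them, beside 6.11% of all listed genes. The folds of OASL, IFIT2, IFIT3, IFIT1, ISG15 and IFI6 were 19.9, 12.1, 9.82, 9.18, 4.31 and 3.71 per the authors' deposited table. Smaller rises were listed too, such as IFITM2 at 1.15-fold and IFITM3 at 1.20-fold per the authors' deposited table. The lower genes were PARP14 at 1.52-fold, IFITM1 at 1.32-fold and PARP9 at 1.18-fold per the authors' deposited table. Several commonly used reporters of the response, MX1, MX2, RSAD2, IFI44L, BST2 and XAF1, chosen for mention after it was seen that they were absent, were among the 11 not listed.

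**Figure D3:**
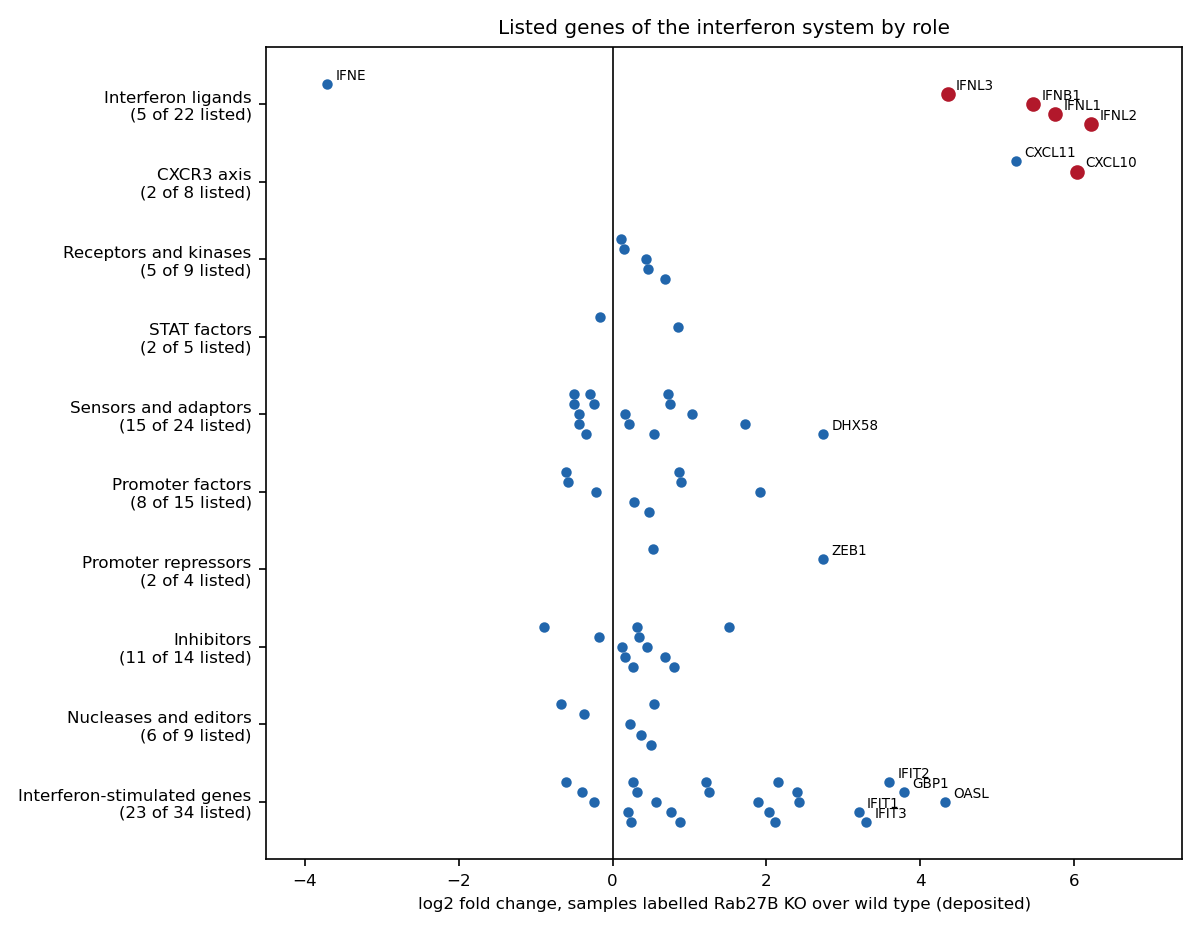
Deposited log2 fold change (x axis) of every listed gene of 10 groups of the interferon system (rows, with the number listed of the number in the group); red points are the 5 genes described and blue points other genes, with vertical offsets only to separate points. The 5 genes and CXCL11 lie above 4, and outside the interferon-stimulated genes no other point rises above 3.

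Listed genes around the 5, which were picked for their large rises, mostly changed by smaller amounts, so nothing is read from that contrast. Those that start within 500 kb numbered 12 around the lambda genes, leaving those 3 out, of which 9 were higher and 3 lower, with log2 fold changes from -1.06 to 1.29 per the authors' deposited table. The largest of them was TIMM50, an import subunit of mitochondria, at 2.44-fold higher per the authors' deposited table. Near IFNB1 3 genes were listed, all lower, namely IFNE, KLHL9 and FOCAD. Near CXCL10 8 were listed, CXCL11 as the only higher one and 7 lower, among them the epithelial shape gene SHROOM3 at 2.58-fold lower and FAM47E, whose readthrough gene with STBD1 was listed as lower too, at 12.2-fold lower with q = 0.0413 per the authors' deposited table. Among all listed genes 50.7% were higher, and the neighbour counts were not tested against that share. On chromosome 4 as a whole 50 of 298 listed genes were higher (16.8%), against 60.3% of 307 on chromosome 9 and 58.3% of 569 on chromosome 19. CXCL10, picked as higher, and CXCL11 thus lie on a chromosome where listed genes were mostly lower.

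**Figure D4:**
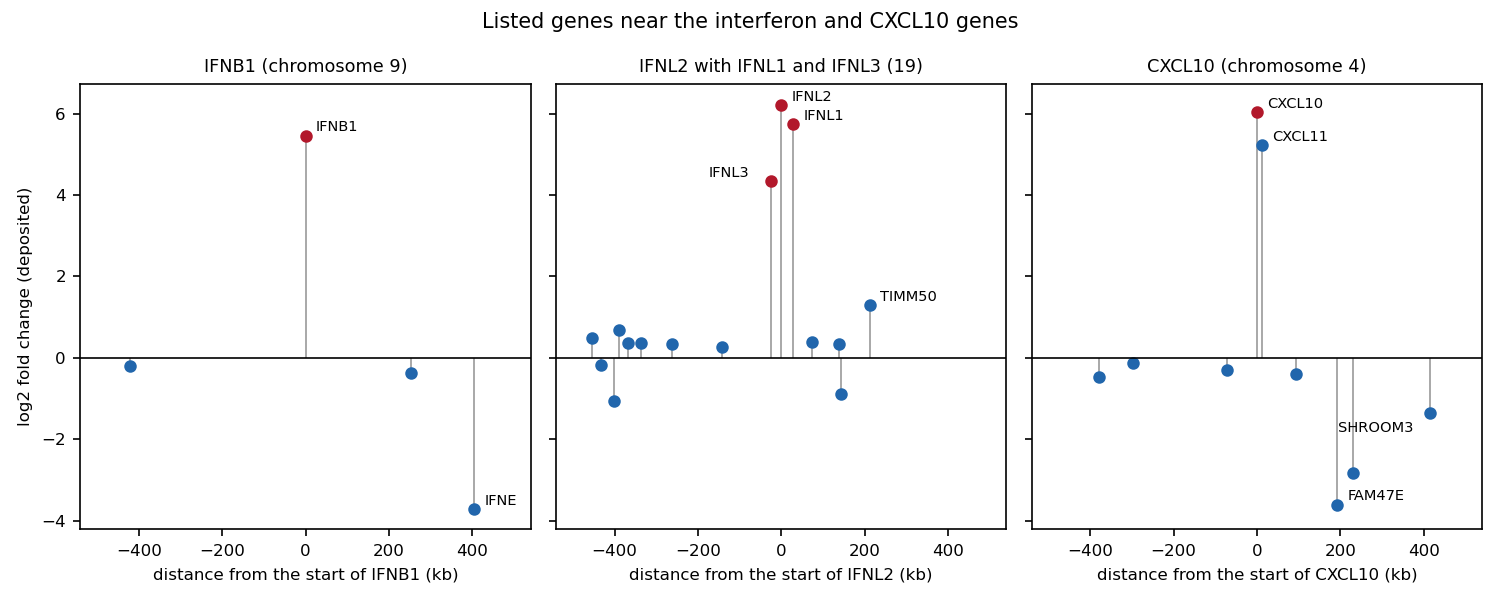
Deposited log2 fold change (y axis) of listed genes by distance in kb between gene starts, taken as the lower coordinate (x axis), around IFNB1, IFNL2 and CXCL10; red points are the 5 genes described and blue points their listed neighbours. The lambda genes, picked for their large rises, stand between 4.35 and 6.22 while their neighbours stay between -1.06 and 1.29.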

How the data were processed

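RNA from 6 HCT116 cultures, 3 per genotype, was sequenced. Per the submitters' processing notes, HISAT, Bowtie2 and the build GRCh38 were used. The sources used here do not give their roles, the counting, the scaling or the test. Per the file headers, the authors deposited for each gene a q-value and a log2 fold change. They also deposited, for higher genes, the linear ratio, which matched the log2 value (largest relative difference 4.53e-10). All 7681 listed q-values were below 0.05, and 17 were 0. The number of genes tested is unknown, so percentages use the listed genes as base.

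Samples were grouped by title. The planned tests on values per sample could not be made, so the authors' q-values were used with no test added. The 5 genes, the 10 gene lists (144 genes) and the motifs were chosen with earlier results of these data known. Rows were matched by printed symbol, with 3 older symbols resolved, and gene IDs gave the same rows. Of the gene IDs 7656 matched RefSeq and 25 did not. Genes named were the 5, RAB27B, all listed genes of the short groups (ligands, CXCR3 axis, receptors, signal factors, repressors), in the other groups all listed genes up to 6 or the 6 with the smallest q-value, markers, the genes next in fold, and genes starting within 500 kb. A few genes that the rule or lists would name are not reported here. Other genes, such as those named as not listed and some further listed genes of the sensor, promoter and interferon-stimulated groups, fall outside that rule. Sequences were aligned with Biopython 1.88 and counted in Python 3.11.15. Functions for motifs and shared stretches were tested on simulated sequences. Alternatives were matching by gene ID, a log2 change of at least 1 and a stricter q-value limit of 0.01.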

Additional observations from a re-analysis of the deposited data

How the results depend on the processing

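All 5 genes kept their listing as higher at a q-value below 0.01, at a log2 change of at least 1 and when matched by gene ID, and matching by gene ID changed no count. At a q-value below 0.01 the lower ligand was lost (0 left), receptors fell from 5 to 3 higher and interferon-stimulated genes from 3 to 1 lower, while the other counts stayed within 1.5 times. At a log2 change of at least 1 the higher genes left were 0 receptors, 0 signal factors, 3 sensors, 1 promoter factor, 1 promoter repressor, 1 inhibitor, 0 nucleases and editors and 13 interferon-stimulated genes. The lower genes left at that size were 0 signal factors, 0 sensors, 0 promoter factors, 0 inhibitors, 0 nucleases and editors and 0 interferon-stimulated genes. These counts fall because fewer genes pass the stricter rule. The planned count models, replicate blocks and leaving out of replicates were not run, since values per sample were not analysed here. No paired analysis was possible because the columns carry no samples. Depth is unknown, so large folds with weak q-values such as those of IFNB1 and CXCL10 have no interval.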

Other observations

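IFNB1 and CXCL10 lie among genes with large folds and weaker q-values, a set defined after the values were seen. Of 38 genes listed as higher with a log2 fold change of at least 4, 23 had a q-value of 1e-06 or more, and IFNB1, CXCL10 and CXCL11 were among those. IFNL1, IFNL2 and IFNL3 were among the other 15. Genes of inflammation were found on both sides. CXCR1, a receptor for the chemokine CXCL8, stood at a log2 fold change of 5.15 with q = 0.00213 per the authors' deposited table. CXCL8 itself stood at 4.02 with q = 1.90e-42, and the complement gene CFB at 4.84 with q = 7.35e-37, per the authors' deposited table. These genes were named after their values were seen, and genes of other kinds, such as ROBO4, CALB1 and DLK1, were in the set as well.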
